A study of Homo sapiens with 3 samples.

Results

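Glycine and glutamate tRNA genes were examined as targets of the RNase III enzyme DICER in Flp-In HEK293 T-Rex cells, a human embryonic kidney line, that carried a FLAG:DICER transgene. The members were all deposited clusters of overlapping reads whose sense annotation named a tRNA gene of glycine (Gly) or glutamate (Glu), with anticodons TCC, GCC or CCC for Gly and CTC or TTC for Glu. They numbered 35 of 11577 clusters in replicate 1, 35 of 18065 in replicate 2, 20 of 5099 in replicate 3, and 34 of 8469 in the authors' series-wide list. Over all lists the clusters named 29 of the 348 tRNA gene ids that had any cluster, 16 for Gly and 13 for Glu. The rule of selection used only these names and no measured value, though it was set with earlier results of these data known. The samples were 3 PAR-CLIP libraries made with RNase T1, all from the same tagged line, with no untagged or untreated group. PAR-CLIP feeds cells a photoreactive uridine, crosslinks the labelled RNA to the bound protein with ultraviolet light and reads the crosslinks as T-to-C conversions. Nothing in the labels ties the replicates to separate cultures, so the spread between them may be technical.

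Nuclear tRNAs are transcribed by RNA polymerase III as precursors with a 5' leader and a 3' trailer. RNase P removes the leader, the ELAC2 endonuclease removes the trailer, and the La protein (SSB) holds the uridine-rich 3' end meanwhile. Under stress, the nuclease angiogenin cuts mature tRNAs in the anticodon loop into a 5' and a 3' fragment, and such fragments of Gly and Glu tRNAs are among those often reported in human cells. Many Gly and Glu tRNA genes have further copies. In the RefSeq table of assembly GRCh38.p14, 45 tRNA genes carried a Gly or Glu symbol with one of the 5 anticodons, and 34 of them belonged to the 9 of 20 numbered groups with more than 1 copy. The files' gene ids follow another numbering and were not matched to these symbols.

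The lists held 1306125, 1060791 and 595487 conversions in replicates 1, 2 and 3, which are totals of listed clusters and not sequencing depth. No measure of tRNA abundance was used, so conversions mix binding with abundance. Every cluster carried a mapping label starting with UNIQ40. The handling of reads shared by identical gene copies is not stated in these sources, so the division of counts among near-identical copies is uncertain. Reads were repeated, at 27.3, 22.4 and 24.6 reads per distinct read over the members, and nothing in the files separates amplified copies of a molecule from independent ones. Both sequencing runs of a replicate contributed reads to 91.4%, 88.6% and 95% of the member clusters, against 51.5%, 92.1% and 99.5% of all clusters. As a check of the line, all 7 hairpins expected in HEK293 cells had a cluster in all 3 replicates. Of 6 hairpins of liver, muscle, brain and blood, MIR451A alone had one in any replicate.

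Gly and Glu tRNA genes together held 21224, 14727 and 6117 conversions in replicates 1, 2 and 3. This was 1.62%, 1.39% and 1.03% of all listed conversions, on average 1.35% ± 0.301 (SD, n = 3), and 1.49% ± 0.118 of distinct reads. Among clusters on tRNA genes they made up 8.37% ± 0.729 of clusters, 5.59% ± 1.03 of distinct reads and 5.50% ± 2.77 of conversions (SD, n = 3). The conversion share was 8.59% in replicate 1 and 4.68% and 3.22% in the others. A member cluster had a median of 29, 27 and 43 conversions, against 49, 32 and 47 for tRNA genes of other amino acids and 13, 5 and 18 for all clusters. Their median length was 36, 39 and 37 nt in the 3 replicates. Gly ranked 9 among the isotype names of the tRNA gene ids by mean share of conversions, at 4.53% ± 3.03, and Glu ranked 17, at 0.962% ± 0.269 (SD, n = 3).

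A single gene carried most of the member conversions in replicates 1 and 2 and 49.6% in replicate 3. The Gly tRNA gene chr17.tRNA10-GlyTCC, with its cluster at hg19 chromosome 17, 8124860 to 8124944 on the plus strand in the series-wide list, reads the glycine codon GGA through its TCC anticodon. It had 15022, 10197 and 3033 conversions in replicates 1, 2 and 3, from 820, 567 and 145 distinct reads. In each replicate this gene lay above every other Gly or Glu tRNA gene by both counts. It held 70.8%, 69.2% and 49.6% of member conversions, on average 63.2% ± 11.8, and 38.9% ± 6.37 of member distinct reads (SD, n = 3). Among all tRNA gene ids it ranked 4, 11 and 19 by conversions. Its crosslink-centred position, which the files call ccr without defining it, was base 8124884 in all 3 replicates and in the series-wide list. On the opposite strand the gene lies across from an intron of the noncoding gene LINC00324.

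**Figure D1:**
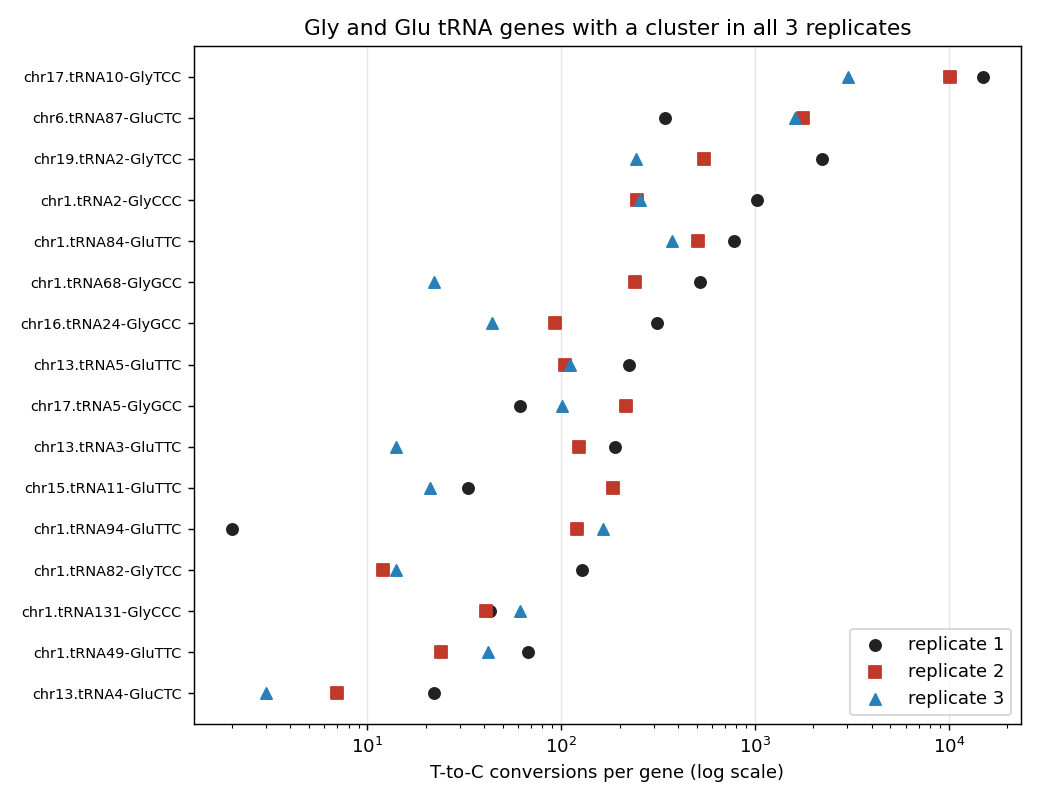
T-to-C conversions (horizontal axis, log scale) of the 16 Gly and Glu tRNA genes with a cluster in all 3 replicates, 1 point per replicate, ordered by the series-wide list. chr17.tRNA10-GlyTCC lies at 3033 to 15022, to the right of all other genes within each replicate. In contrast, chr6.tRNA87-GluCTC, chr1.tRNA94-GluTTC and chr17.tRNA5-GlyGCC are lowest in replicate 1.

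The other TCC genes were weaker. chr19.tRNA2-GlyTCC (chromosome 19, 4724076 to 4724167, plus strand) had 2219, 549 and 244 conversions from 254, 156 and 26 distinct reads. Replicate 1 was the highest for this gene and the 3 values spread widely, so its share of member conversions was 6.06% ± 3.81 (SD, n = 3). chr1.tRNA82-GlyTCC (chromosome 1, 161409971 to 161410032, minus strand) had 128, 12 and 14 conversions, and its ccr was base 161409999 in every list. It was again highest in replicate 1, with the other replicates close together. chr1.tRNA45-GlyTCC had a cluster in replicates 1 and 2 only, with 41 and 7 conversions. Together the 4 TCC gene ids held 82.0%, 73.1% and 53.8% of member conversions.

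The GCC genes, which read the codons GGC and GGT, held 3.82% ± 0.925 of member conversions over 7 gene ids (SD, n = 3). chr1.tRNA68-GlyGCC had 522, 240 and 22 conversions in replicates 1, 2 and 3, the most of the GCC genes in replicates 1 and 2 but fewer than chr17.tRNA5-GlyGCC and chr16.tRNA24-GlyGCC in replicate 3. In the series-wide list its clusters lay at chromosome 1, 161493675 to 161493714 and 161493623 to 161493669, minus strand, across from FCGR2A on the plus strand. chr16.tRNA24-GlyGCC (chromosome 16, 70812926 to 70812964, minus strand), within an intron of VAC14, had 311, 93 and 44 conversions. Both genes were highest in replicate 1 and lowest in replicate 3. chr17.tRNA5-GlyGCC (chromosome 17, 8029059 to 8029098 and 8029102 to 8029146, plus strand) was highest in replicate 2, with 61, 217 and 101. The other 4 GCC ids had clusters in 2 replicates each, with 2 to 38 conversions per replicate where present.

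The CCC genes held 4.26% ± 1.78 of member conversions over 5 gene ids (SD, n = 3), and chr1.tRNA2-GlyCCC made up most of it. This gene had 1026, 247 and 254 conversions from 126, 70 and 25 distinct reads. Its reads formed 1 cluster as long as 124 nt (chromosome 1, 17053761 to 17053884, plus strand), the longest of the members. chr1.tRNA131-GlyCCC (chromosome 1, 17004753 to 17004836, minus strand) had 43, 41 and 61 conversions, the most even of the 16 genes found in all replicates, with a ratio of highest to lowest of 1.49. Over those 16 genes this ratio had a median of 6.12 and reached 82.5, in chr1.tRNA94-GluTTC. chr17.tRNA13-GlyCCC was present in replicate 1 alone, with 29 conversions. chr1.tRNA133-GlyCCC had 29 and 27 conversions in replicates 1 and 2, and chr16.tRNA34-GlyCCC had 21 and 10, with no cluster in replicate 3 for either.

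Among Glu genes, a single CTC gene had the most conversions in replicates 2 and 3, while chr1.tRNA84-GluTTC had the most in replicate 1 and the more distinct reads of this pair in replicates 1 and 3. chr6.tRNA87-GluCTC (chromosome 6, 126101433 to 126101469 for its main cluster, minus strand), which reads the codon GAG, had 343, 1777 and 1612 conversions from 45, 146 and 64 distinct reads. Replicate 1 was the lowest for this gene, although replicate 1 had the highest total for the members. Its share of member conversions was 1.62%, 12.1% and 26.4%, and its share of all listed conversions 0.0263%, 0.168% and 0.271%. The ccr of its main cluster was base 126101446 in every list. The other 4 CTC ids had few conversions. chr1.tRNA59-GluCTC had 21 and 100 in replicates 1 and 2, chr13.tRNA4-GluCTC had 22, 7 and 3, chr1.tRNA116-GluCTC had 23 in replicate 2, and chr18.tRNA1-GluCTC had 2 in replicate 2.

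The TTC genes, which read the codon GAA, spread their signal over more copies, with 8 gene ids and 8.55% ± 2.95 of member conversions (SD, n = 3). chr1.tRNA84-GluTTC (chromosome 1, 161391921 to 161391962 for its main cluster, minus strand) had 782, 509 and 374 conversions from 104, 134 and 68 distinct reads. Of the TTC genes it had the most conversions in each replicate. chr13.tRNA5-GluTTC (chromosome 13, 41634915 to 41634953, minus strand) had 223, 105 and 111, and chr13.tRNA3-GluTTC (45492050 to 45492095 and 45492103 to 45492139) had 189, 124 and 14. chr15.tRNA11-GluTTC (chromosome 15, 26327422 to 26327462, minus strand) was highest in replicate 2, with 33, 186 and 21. chr1.tRNA94-GluTTC (chromosome 1, 149664395 to 149664430, minus strand) had 2, 121 and 165 conversions and was nearly empty in replicate 1. chr1.tRNA49-GluTTC, within an intron of FCGR2B, had 67, 24 and 42 conversions. Its repeat annotation named a Gly tRNA instead of Glu. The other TTC ids, chr1.tRNA5-GluTTC with 14 and 22 conversions and chr2.tRNA20-GluTTC with 23 and 12, had clusters in replicates 1 and 2 only. Repeat names fitted the anticodon of the gene id for 23 of 29 ids. For chr1.tRNA49-GluTTC and 4 other TTC ids the repeat carried another name, and chr16.tRNA34-GlyCCC had none.

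Across the 5 anticodons, TCC came first by mean share of conversions at 69.6% ± 14.4, followed by CTC at 13.7% ± 12.3, TTC at 8.55% ± 2.95, CCC at 4.26% ± 1.78 and GCC at 3.82% ± 0.925 (SD, n = 3). TCC exceeded each other anticodon in every replicate. CTC and TTC did not differ beyond their spread, since CTC was 1.82%, 13.0% and 26.4% and TTC 6.28%, 7.49% and 11.9%, and neither did CCC and GCC. By distinct reads TCC fell to 50.9% ± 11.2 and TTC came next at 22.5% ± 8.43, with CTC at 10.7% ± 6.06 and CCC at 7.74% ± 2.11 (SD, n = 3). GCC had 9.40%, 9.24% and 5.69% of distinct reads in replicates 1, 2 and 3. By distinct reads TTC was above CTC in every replicate, but by conversions in replicate 1 alone.

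**Figure D2:**
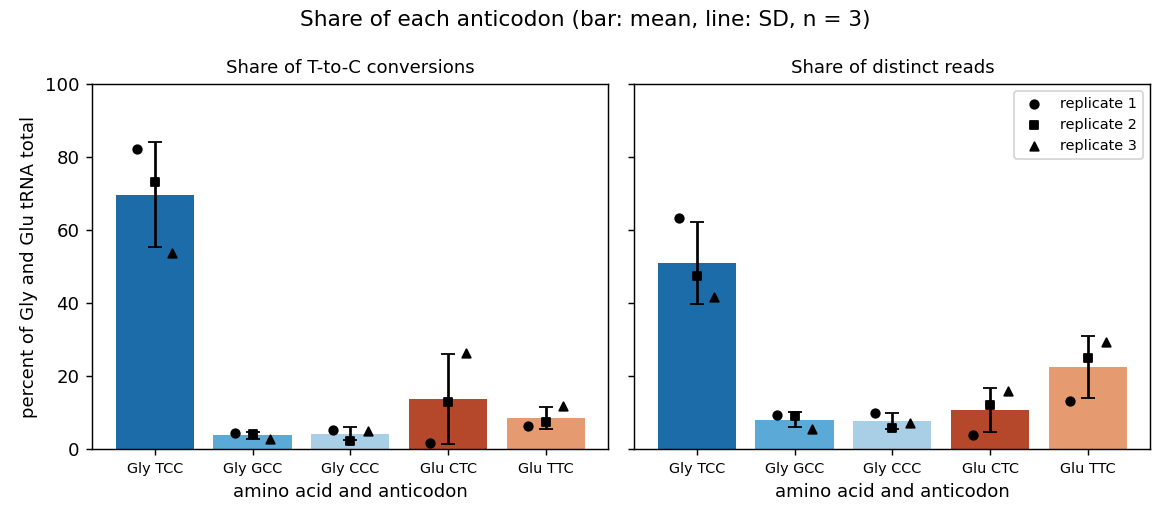
Share of each anticodon in all Gly and Glu tRNA conversions (left) and distinct reads (right), in percent on the vertical axis; bars are means, lines SD and points the 3 replicates. Gly TCC has the highest bar in both panels, at 69.6% and 50.9%, and Glu TTC stands at 8.55% of conversions and 22.5% of distinct reads.

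Gly genes held 91.9%, 79.5% and 61.7% of member conversions and Glu genes 8.10%, 20.5% and 38.3%. The difference was 55.4 percentage points ± 30.4 (SD, n = 3) and was above 0 in 3 of 3 replicates (p = 0.25 by an exact sign-flip permutation test, two-sided, the smallest that 3 replicates allow; Benjamini-Hochberg adjusted p = 0.375 over 3 tests). It rested on chr17.tRNA10-GlyTCC. Without that gene the difference was 44.6, -33.0 and -51.9 percentage points in replicates 1, 2 and 3 and averaged -13.4 ± 51.1 (SD, n = 3; exact sign-flip permutation p = 0.75). Replicate 1 then lay on the Gly side and the other replicates on the Glu side. No Glu gene was left out in turn, so the comparison was trimmed on the Gly side only. CTC genes, mainly chr6.tRNA87-GluCTC, held 6.22%, 42.1% and 52.4% of the conversions that remained in replicates 1, 2 and 3. The difference without both genes was not computed. The number of clusters hardly differed, at 18 Gly and 17 Glu clusters in replicates 1 and 2 and 10 of each in replicate 3.

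Where a gene had a pair of separate clusters, the one nearer the 5' end usually had more conversions. The tRNA gene ends in hg19 were not used here, so positions refer to the stretch covered by all clusters of a gene, from which a trailer cannot be told apart. In 10 genes, 19 gene and replicate pairs had a cluster on each side, separated by 3 to 30 nt with a median of 17. The 5' cluster had more conversions in 7 of 9 genes in replicate 1, 7 of 7 in replicate 2 and 3 of 3 in replicate 3, and more distinct reads in 7, 5 and 3. In these genes the 5' clusters had 1766, 2377 and 512 conversions and the 3' clusters 432, 136 and 74. The ccr of the 5' clusters lay 15 to 33 nt from the 5' end of the covered stretch, with a median of 24, and that of the 3' clusters 57 to 87 nt, with a median of 74.

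The 5' cluster of chr6.tRNA87-GluCTC had 327 and 1745 conversions in replicates 1 and 2 and its 3' cluster 16 and 32. chr1.tRNA84-GluTTC had 755 against 27 in replicate 1 and 347 against 27 in replicate 3. chr1.tRNA68-GlyGCC was less uneven, with 399 against 123 in replicate 1 and 213 against 27 in replicate 2. The exceptions were chr13.tRNA3-GluTTC, with 26 conversions on the 5' and 163 on the 3' side in replicate 1 but 79 against 45 in replicate 2, and chr17.tRNA5-GlyGCC, with 29 against 32 in replicate 1. These genes therefore did not keep the same order in every replicate. In other replicates some of the 10 genes had a cluster on 1 side only. It was the 3' side for chr13.tRNA3-GluTTC in replicate 3, with 14 conversions, and for chr6.tRNA128-GlyGCC in replicate 2, with 19. It was the 5' side for chr6.tRNA87-GluCTC in replicate 3, with 1612, for chr1.tRNA84-GluTTC in replicate 2, with 509, and for chr1.tRNA68-GlyGCC in replicate 3, with 22. The same held for chr2.tRNA19-GlyGCC in replicate 1, with 16, and for chr13.tRNA4-GluCTC in replicates 2 and 3, with 7 and 3.

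**Figure D3:**
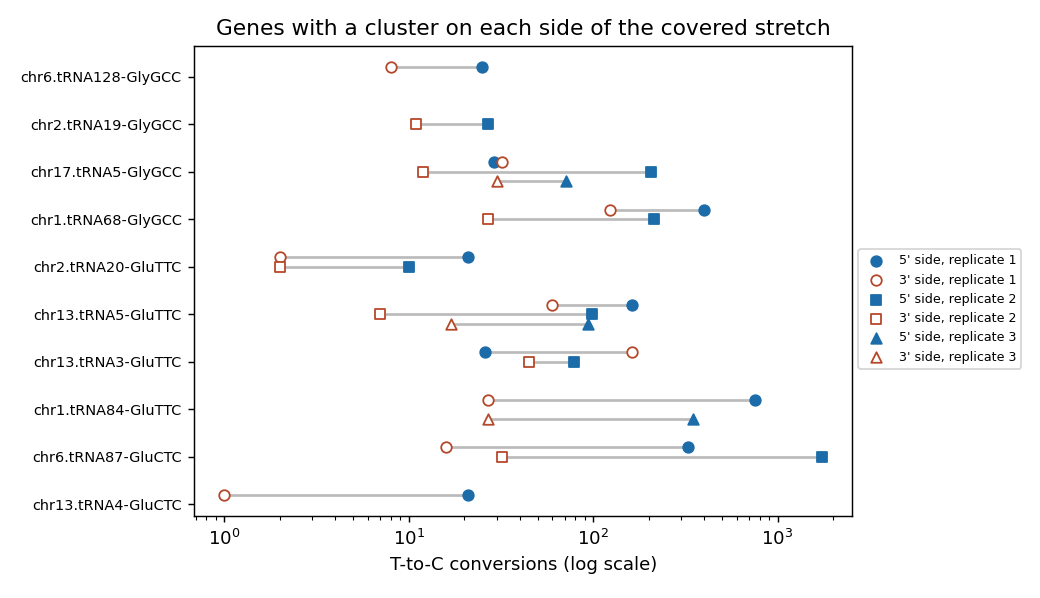
T-to-C conversions (horizontal axis, log scale) in the 5' (filled blue) and 3' (open red) cluster of the 10 genes with a cluster on each side of the midpoint of their covered stretch, 1 symbol shape per replicate, joined by a grey line. The 5' cluster lies to the right in 17 of 19 pairs, the exceptions being chr13.tRNA3-GluTTC and chr17.tRNA5-GlyGCC in replicate 1.

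Placing the clusters of every gene whose covered stretch was at least 60 nt by their centre, 17 of 29 genes, gave the 5' side 91.8% ± 1.79 and the 3' side 1.81% ± 0.678 of member conversions (SD, n = 3), with the rest unplaced. The difference of 90.0 percentage points ± 1.49 was above 0 in 3 of 3 replicates (p = 0.25 by the same exact test, the smallest possible; adjusted p = 0.375). Most of this 5' signal, 90.8%, 78.5% and 62.6% in the 3 replicates, lay in clusters that crossed the midpoint, chr17.tRNA10-GlyTCC included. For this gene only the series-wide cluster, part of the covered stretch, reached base 8124944. Its clusters ended at 8124915, 8124921 and 8124916 in replicates 1, 2 and 3. With replicate clusters alone, those of replicates 2 and 3 would be centred on the midpoint and unplaced. The 91.8% thus depended on the series-wide end. Without the gene, the 5' and 3' sides held 75.4% and 5.02%. In the series-wide list that gene's cluster filled its whole covered stretch and could not be placed, and the 5' share was 15.2% against 2.30% for the 3' side. By anticodon, the 3' share was 17.2%, 11.04% and 17.8% for GCC and 18.9%, 4.90% and 13.8% for TTC. Anticodons were not ranked by this share, since all CCC conversions were unplaced in replicate 1 and the CCC gene chr1.tRNA131-GlyCCC lay on the 5' side by its cluster's centre in replicates 2 and 3 but on the 3' side by its ccr.

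Over all members, conversions per distinct read showed no constant direction against other tRNA genes. The ratio was 12.0, 9.39 and 14.5 for the members and 9.45, 11.2 and 22.2 for tRNA genes of other amino acids in replicates 1, 2 and 3. Members were above in replicate 1 and below in the others, and the mean difference was -2.32 ± 5.10 (SD, n = 3; p = 0.75 by the same exact test; adjusted p = 0.75). This mix rested on chr17.tRNA10-GlyTCC. Without that gene, a choice made after seeing the data, the remaining members were below other tRNA genes in each replicate. The mean difference was then -6.88 ± 4.03 (SD, n = 3; exact sign-flip permutation p = 0.25, the smallest possible). Within the members, the mean ratio was highest for TCC genes, at 16.2 ± 2.23, and lowest for TTC genes, at 4.79 ± 1.73 (SD, n = 3), but not in every replicate. CTC was above TCC in replicate 3, and CTC and GCC were below TTC in replicate 1. The CTC genes varied from 5.36 in replicate 1 and 9.94 in replicate 2 to 24.1 in replicate 3. For single genes, chr17.tRNA10-GlyTCC was steady at 19.1 ± 1.61, and chr6.tRNA87-GluCTC ranged from 7.62 to 25.2. Repeated reads enter the conversions, so the ratio is not crosslinking per molecule. Reads per distinct read were 27.3, 22.4 and 24.6 for the members and 20.1, 28.3 and 47.6 for other tRNA genes. They were 37.9, 30.3 and 31.8 for TCC, 6.92, 4.93 and 8.75 for GCC and 10.8, 20.4 and 17.2 for TTC. Their part in the ratio was not tested.

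TTC genes had the lowest share of T-to-C conversions among the sequence changes listed. The files give for each cluster a number of edits, not defined there, which in every list was at least the number of conversions and at most the number of reads. T-to-C conversions were 70.4%, 15.3% and 50.2% of the edits of TTC genes, against 74.1%, 76.6% and 92.1% for the other 4 anticodons together. The TTC share was lower in each replicate, by little in replicate 1, and the comparison was made after the values were seen and was not tested. For tRNA genes of other amino acids the share was 64.8%, 52.6% and 60.1% in replicates 1, 2 and 3. TTC genes were above these in replicate 1 and below in the others. All members together, at 73.9%, 58.9% and 83.8%, were above them in each replicate. Of the 31 TTC clusters in the replicates 10 had a share below 50%, against 0 of 11 for TCC, 0 of 24 for GCC, 1 of 11 for CCC and 2 of 13 for CTC. Such clusters were not counted among other tRNA genes or in the whole lists, so this contrast holds within the members only.

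Besides chr1.tRNA94-GluTTC in replicate 1 and chr15.tRNA11-GluTTC in replicate 3, these TTC clusters came from 3 loci. The 3' cluster of chr2.tRNA20-GluTTC (chromosome 2, 131094695 to 131094733, minus strand) had 3201 reads and 3195 edits in replicate 2, of which 2 were conversions, a share of 0.0626% (exact 95% binomial interval 0.00758% to 0.226%, which covers counting error only). In replicate 1 the same place had 52 edits and 2 conversions. The main cluster of chr1.tRNA84-GluTTC had a share of 17.7% in replicate 2 and 37.1% in replicate 3, while the gene as a whole had 72.0% in replicate 1. chr13.tRNA3-GluTTC had 38.6% ± 15.4 (SD, n = 3). Without chr2.tRNA20-GluTTC the TTC share in replicate 2 was 27.2%, still below the other anticodons. What the remaining edits are was not tested.

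**Figure D4:**
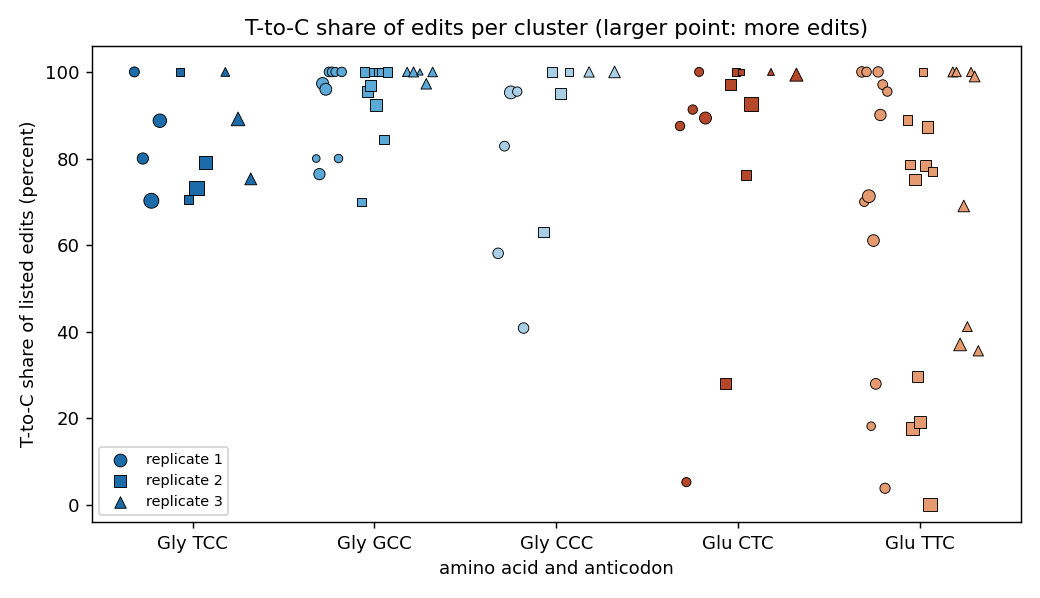
Share of T-to-C conversions among the listed edits of each member cluster (vertical axis, percent) by anticodon, with 1 symbol shape per replicate and larger points for more edits. Clusters below 50% are mostly Glu TTC, 10 of 31, and include the large point near 0 of chr2.tRNA20-GluTTC in replicate 2.

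The share of gene copies found in every replicate was near that of all tRNA genes. Of the 29 Gly and Glu gene ids with a cluster in any replicate, 16 had one in all 3 (55.2%), against 60.1% of all tRNA gene ids. They comprised 3 of 4 TCC, 3 of 7 GCC, 2 of 5 CCC, 2 of 5 CTC and 6 of 8 TTC ids. A further 10 had a cluster in 2 replicates and 3 in 1. Replicate 3, the smallest list, named 17 of the ids, and without it 25 ids were shared by the other replicates. Over the 16 shared genes the ccr of the strongest cluster was the same base in all 3 replicates for 4, namely chr17.tRNA10-GlyTCC, chr6.tRNA87-GluCTC, chr13.tRNA5-GluTTC and chr1.tRNA82-GlyTCC, and lay within 3 nt for 6. The conversion count was highest in replicate 1 for 11 of the 16, in replicate 2 for 3 and in replicate 3 for 2. As a share of each list's total, these numbers were 8, 2 and 6. No cluster of any list lay antisense to a Gly or Glu tRNA gene.

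Clusters on mRNAs of tRNA synthesis, processing and charging were also counted. Of 37 such genes, 21 had a cluster in any replicate. The same share over all genes was not computed, so this number cannot be called low or high. Of the 21, 3 had a cluster in all 3 replicates, against 19.3% of all gene names with a cluster in any replicate. With so few genes this is not read as a difference. GTF3C4, a subunit of the polymerase III factor TFIIIC, had 58, 45 and 55 conversions in replicates 1, 2 and 3. BDP1, a subunit of the initiation factor TFIIIB, had 15, 20 and 13. EPRS, which charges glutamate and proline tRNAs, had 10, 8 and 8. Each of these was below every replicate value of chr6.tRNA87-GluCTC, one of the strongest members, but not below all members. Against chr13.tRNA4-GluCTC, with 22, 7 and 3 conversions, GTF3C4 was higher in every replicate and BDP1 and EPRS were higher in replicates 2 and 3. GARS, which charges glycine tRNAs, had a cluster in replicate 2 alone, with 4 conversions, and ELAC2, SSB and ANG had none in any replicate.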

How the data were processed

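The deposited files are 1 cluster list for each replicate and a series-wide list with reads from at least 2 replicates per cluster. Per the submitters' processing notes, Bowtie2 2.1.0 and the hg19 build were used. Per the file headers and attributes, clusters carry an estimated false discovery rate of 5%. Values analysed are counts of T-to-C conversions, as the authors deposited them for each cluster without normalisation. The deposited entropy score was not used. Distinct reads, reads and edits came from the deposited attribute text.

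Clusters were grouped by the tRNA gene id in their sense annotation. Each named 1 id at most among the members. Pseudogene ids were left out of the other tRNA genes. Shares are of the listed total of each replicate. Differences over 3 replicates went through a two-sided exact permutation of their signs, which cannot go below 0.25, with adjustment over 3 tests. Positions came from the union of a gene's clusters in the replicates and the series-wide list, with a minimum of 60 nt set after the files were seen. Parsing and placing recovered 100% of 400 simulated clusters. Python 3.11.15, numpy 2.4.6, pandas 2.3.3 and scipy 1.17.1 were used. For each anticodon, up to 5 genes with the most series-wide conversions among those in all 3 replicates were to be named, with the gene of most distinct reads and any gene over 10% of member conversions; further ids were named to account for all members. Members and lists were chosen with earlier results of these data known. No sequences are printed, since the sources used here held none for these genes.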

Additional observations from a re-analysis of the deposited data

How the results depend on the processing

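Of 113 recalculations over 12 results, 84 kept the main value within 1 SD of the replicates, or its direction or its count within 1.5 times, 27 moved further and 2 reversed. No test could reach the 0.05 threshold with 3 replicates, so tested differences were judged by direction alone. The series-wide 5' minus 3' difference, 12.9 percentage points against 90.0, therefore counted among the 84. Leaving out chr17.tRNA10-GlyTCC, chosen after seeing the data, moved the member share of conversions from 1.35% to 0.477%, reversed Gly minus Glu to -13.4 percentage points and gave TCC 19.8%, GCC 11.5%, CCC 12.0%, CTC 33.6% and TTC 23.1%, with 75.4% in the 5' side and 5.02% in the 3' side. Counting each cluster once gave members 0.296%, TCC 12.6%, GCC 26.4%, CCC 11.9%, TTC 35.2%, the 5' side 42.4% and the 3' side 26.2%. Weighting by distinct reads gave TCC 50.9%, GCC 8.11%, CCC 7.74%, TTC 22.5%, the 5' side 77.2% and the 3' side 6.75%. The series-wide list put 15.2% in the 5' side. Placing by ccr gave 93.9% and 2.69% in the 5' and 3' sides, and genes with a cluster on each side gave 87.4% and 12.6%, both chosen after seeing the data. Leaving out each replicate in turn gave -4.73 to 0.345 for conversions per distinct read of members minus other tRNA genes, reversed to 0.345 without replicate 3, and 16 to 25 shared gene ids, with 25 without replicate 3. The same difference in conversions per distinct read was -6.88 without chr17.tRNA10-GlyTCC, with no gene left out of the other tRNA genes. Restricting to single tRNA gene names could change nothing, since no member named more than 1 id. These recalculations are also counted among the 84. The trailer alternative was not run, because tRNA gene ends were not used here.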
